A study of Mus musculus with 19 samples.

Results

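The contacts of the Mnx1 promoter with Shh, with En2 and with the rest of the mouse Shh locus were read from capture Hi-C maps. Capture Hi-C joins DNA ends that lie near each other in fixed nuclei and enriches the joined fragments of 1 region before sequencing. The viewpoint was the 10 kb bin from 29800001 to 29810000 of chromosome 5 (mm9), taken as the bin of the Mnx1 promoter, 1 of the 280 bins in every map. Its partners were the other 279 bins, of which 261 lie 100 kb or more away. The Shh bins were the 2 bins from 28780001 to 28800000, which overlap the Shh viewpoint in the labels (28789001 to 28799000), at -1020 and -1010 kb from Mnx1, where negative distances run towards Shh and En2. The En2 bins were the 3 bins from 28480001 to 28510000, at -1320 to -1300 kb. The viewpoint was chosen by the observed over expected contact of this bin with Shh, already known to differ between these same maps, so all values of Mnx1 below are a description and carry no test. No annotation of the mm9 build was used, so the placing of Mnx1 and En2 in their bins is taken as given.

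The 19 samples fall into 9 groups. Wild type embryonic stem (ES) cells were of the G4 line, a hybrid mouse line used for genome engineering. Midbrain came from E10.5 embryos lacking the CTCF sites i4i5ZRS (G4) and from wild type embryos (C57BL/6). Limb buds came from E10.5 embryos with 5 deletions in the G4 background: the CTCF sites i4i5, the CTCF sites i4i5ZRS, an allele labelled i4i5ZRSreg, an element named ZRSreg, and the promoter of Lmbr1 on both alleles (Lprom below). They were compared with wild type C57BL/6 limb buds. Wild type limb has 3 samples and each other group 2. The series design calls the wild type replicates biological and the mutant replicates technical, but the titles give 2 of the 3 limb samples of wild type embryos 1 library number, and these may be the same library. Every group was deposited as 1 merged map. No spread between samples could therefore be had, and no p-value is given. Strain cannot be told apart from genotype in any comparison of a mutant with wild type, nor from cell type for ES cells. Contact maps hold no expression, so the labelled tissues were not checked against marker genes.

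Mnx1 encodes a homeobox transcription factor needed for the identity of motor neurons and for the development of the pancreas. Sonic hedgehog, the product of Shh, is a secreted protein that patterns limb buds and the neural tube, and En2 encodes a homeobox factor that acts in the midbrain and hindbrain. In the gene order of the GRCm38.p6 build, Shh lies between En2 and Mnx1, with Cnpy1 and Rbm33 between En2 and Shh, and with Rnf32, Lmbr1 and Nom1 between Shh and Mnx1. The limb enhancer of Shh, the ZRS, lies in an intron of Lmbr1. Mnx1 is thus outside the Shh domain, on the far side of Lmbr1.

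The Mnx1 promoter is shown because the viewpoint is named for it. It runs from upstream of the transcription start to 50 bases past it, from the RefSeq annotation of GRCm38.p6 (chr5:29478421-29478720, minus strand, a different build from that of the contact maps), with each CG in capitals:
Mnx1 promoter: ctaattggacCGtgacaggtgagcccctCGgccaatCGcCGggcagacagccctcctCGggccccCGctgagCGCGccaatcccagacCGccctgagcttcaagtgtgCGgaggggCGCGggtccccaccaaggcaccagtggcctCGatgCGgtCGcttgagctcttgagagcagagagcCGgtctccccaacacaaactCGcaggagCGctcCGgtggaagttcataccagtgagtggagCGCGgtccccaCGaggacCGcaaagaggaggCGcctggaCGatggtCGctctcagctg
These 300 bases hold 26 CG pairs. Among 32851 mouse promoters of the same length the median was 7 CG pairs, and 83.1% had fewer than the Mnx1 promoter. G and C made up 66.3% of it, against a median of 52.7%.

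Contacts are given as observed over expected, which is the balanced signal of a pair of bins divided by the mean over every pair of that map with equal separation. A value of 1 is the mean at that separation. The maps held 1177173 to 3218492 contacts, and the Mnx1 bin took part in 8210 to 20272 of them, 3988 to 8210 at 100 kb or more. Limb i4i5 was the shallowest map. Intervals in brackets are 95% counting intervals. They cover counting error only, since no molecular identifier is named that would tell independent molecules apart, and they compare these libraries, not the conditions.

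Scaled by separation, the far contacts of Mnx1 peaked at En2 and at Shh in all 9 maps, including limb buds and midbrain. In counts most far contacts lay elsewhere. In wild type limb the Shh bins held 265 and the En2 bins 667 of the 8065 contacts at 100 kb or more. Over the 261 bins at 100 kb or more the median observed over expected was 0.799 in ES cells, 0.761 in wild type midbrain and 0.723 in wild type limb, so most bins met Mnx1 less than the mean pair at their separation. Only 8 bins in ES cells, 6 in wild type midbrain and 8 in wild type limb passed 5. The peaks stand up from this floor in the profile of the 3 wild type maps.

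**Figure D1:**
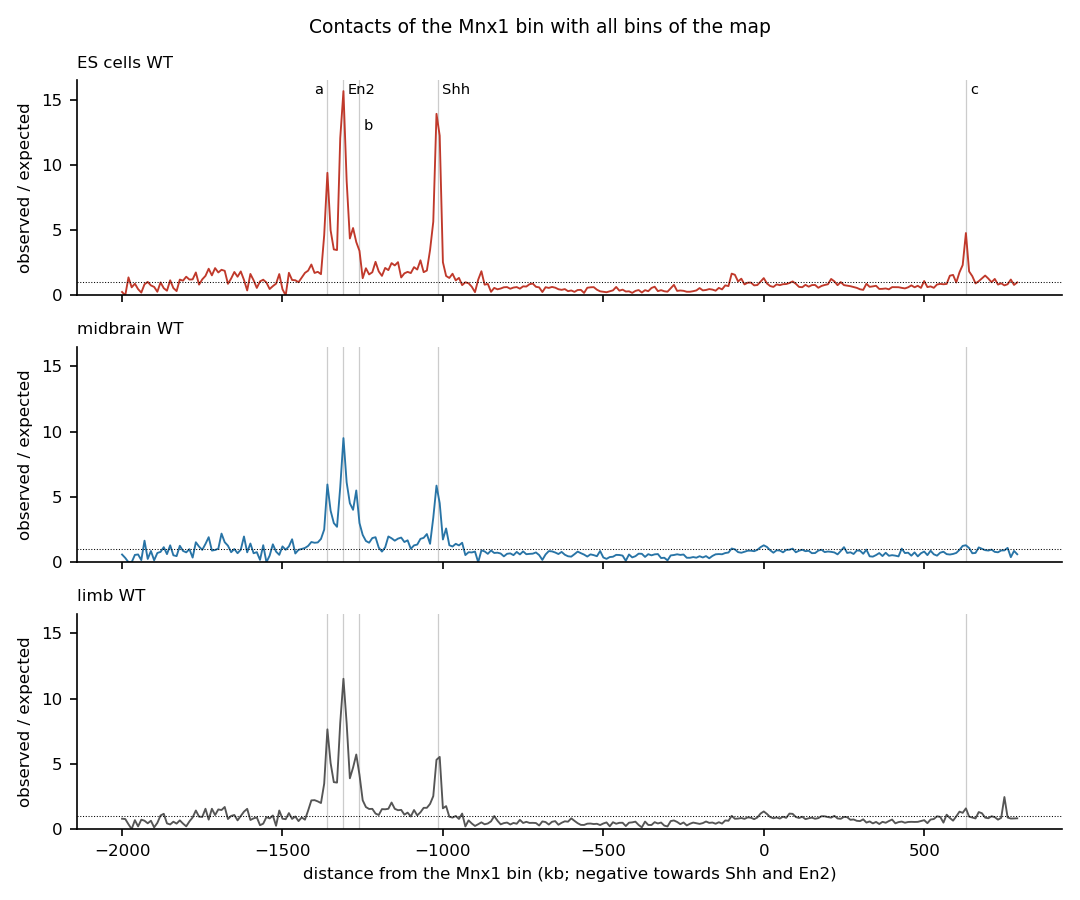
Observed over expected contact of the Mnx1 bin with every other bin of the region (y axis, linear, no unit) against distance from Mnx1 (x axis, kb) in the 3 wild type maps, with the dotted line at 1. Grey lines mark the En2 and Shh bins and 3 bins called a, b and c in the text; ES cells reach 15.6 at En2 and 13.9 at Shh, against 11.5 and 5.31 in limb at the same bins, and bin c stands out in ES cells at 4.77.

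The En2 bins held the highest partner bin of Mnx1 in 8 of 9 maps. That bin (28490001 to 28500000, at -1310 kb) reached 15.6 in ES cells (13.6 to 17.9, 215 contacts), 9.51 in wild type midbrain (7.999 to 11.2, 140 contacts) and 11.5 in wild type limb (10.2 to 12.98, 269 contacts). The exception was midbrain i4i5ZRS, where En2 stood at 7.32 (5.98 to 8.88) and the Shh bin at 28780001 led with 8.29 (6.76 to 10.1). Over its 3 bins En2 contact was 12.2 in ES cells (11.1 to 13.3, 510 contacts). It was 5.27 in midbrain i4i5ZRS (4.61 to 6.00, 226 contacts) and 7.12 in wild type midbrain (6.37 to 7.94, 328 contacts). Both midbrain maps were thus lower than every limb map, although the interval of wild type midbrain overlaps that of limb i4i5ZRS and of limb i4i5. In mutant limb the same mean was 8.52 in i4i5 (7.57 to 9.56, 289 contacts), 7.37 in i4i5ZRS (6.56 to 8.24, 307 contacts), 10.46 in i4i5ZRSreg (9.74 to 11.2, 769 contacts), 10.2 in ZRSreg (9.38 to 11.01, 611 contacts) and 8.76 in Lprom (8.07 to 9.50, 589 contacts). Wild type limb had 9.25 (8.56 to 9.98, 667 contacts). Ordered by level, neighbouring maps had overlapping intervals all along the list, except for the lowest, midbrain i4i5ZRS, which lay below wild type midbrain.

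The Shh contact was weaker than the En2 contact in most maps. Outside ES cells it ran from 5.17 to 8.82, and the En2 contact from 5.27 to 10.46. In ES cells the Shh contact was 13.1 (11.9 to 14.4, 423 contacts). In midbrain it was 7.18 with i4i5ZRS (6.25 to 8.20, 215 contacts) and 5.20 in wild type (4.44 to 6.04, 169 contacts). ES cells stood above all other maps, with an interval that overlapped none of them. In mutant limb it was 7.34 in i4i5 (6.34 to 8.45, 192 contacts), 7.98 in i4i5ZRS (7.01 to 9.06, 240 contacts), 8.82 in i4i5ZRSreg (8.01 to 9.68, 438 contacts), 5.41 in ZRSreg (4.70 to 6.19, 209 contacts) and 5.17 in Lprom (4.54 to 5.87, 239 contacts). Wild type limb had 5.42 (4.79 to 6.11, 265 contacts). In the Mnx1 bin itself the 4 maps with CTCF sites deleted had 7.18 to 8.82, and the 4 without, ES cells aside, had 5.17 to 5.42. The nearest intervals across this split lay close together, that of midbrain i4i5ZRS from 6.25 and that of ZRSreg up to 6.19. Within each set neighbouring intervals overlapped. The bin was chosen by its Shh contact, so the split is a description and no test. In the neighbour bin towards Shh the same maps split, at 6.81 to 8.06 against 5.14 to 6.51. The nearest intervals overlapped there, limb i4i5 at 5.91 to 7.81 and ZRSreg at 5.77 to 7.33. In the bin away from Shh the split did not hold across tissues. There midbrain i4i5ZRS had 4.91, below ZRSreg at 5.10 and wild type limb at 5.02. Within limb that bin had 5.66 to 6.41 against 3.99 to 5.10, with overlapping nearest intervals. Wild type midbrain had 3.88 there.

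Both contacts ranked highest among blocks of equal separation. The Mnx1 bin was chosen by its contact with Shh, so its rank with Shh is a description and gives no support. No other block of 1 by 2 bins at the Shh separation, of 177 in each map, had a higher value than Mnx1 with Shh, and none of 147 blocks of 1 by 3 bins at the En2 separation was higher than Mnx1 with En2. Blocks next to the peaks are among those counted. Within 50 kb of both genes, the single highest pair lay in the Mnx1 bin and the En2 bins in all 9 maps. For Shh it lay in the Mnx1 bin in 6 maps, and in ZRSreg, Lprom and wild type limb it lay 10 kb nearer to Shh, in the bin from 29790001, at 6.71, 6.27 and 5.86.

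**Figure D2:**
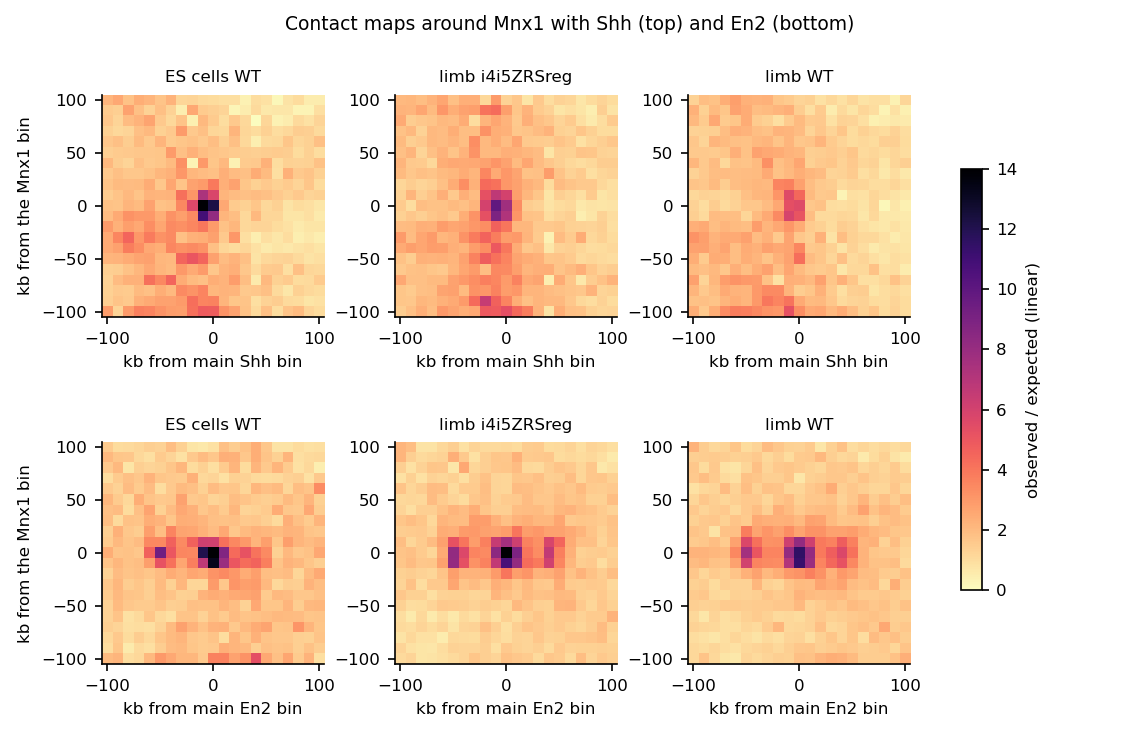
Observed over expected contact (colour, linear scale) of bins within 100 kb of Mnx1 (y axis, kb) with bins within 100 kb of Shh (top) or En2 (bottom; x axis, kb), in ES cells, limb i4i5ZRSreg and wild type limb. The Shh peak is darkest in ES cells (13.9 in its highest bin), intermediate in i4i5ZRSreg (9.87) and palest in wild type limb (5.86), while En2 shows a central peak with a second one 50 kb further from Mnx1 in all 3 maps.

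In ES cells both contacts were more concentrated in the Mnx1 bin itself. Their Shh contact was 13.1 in the Mnx1 bin, 9.55 in the neighbour towards Shh and 6.56 in the neighbour away from it, so that the Mnx1 bin stood at 1.62 times the mean of its neighbours. In wild type limb the same bins had 5.42, 5.50 and 5.02, a ratio of 1.03. With En2 the ratio was 1.65 in ES cells and 1.19 in wild type limb. In the other maps it was 0.932 to 1.22 with Shh and 1.17 to 1.40 with En2.

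The main comparison of tissues set ES cells against limb buds. Mnx1 met Shh 1.27 higher in ES cells on the log2 scale (1.05 to 1.497) and En2 0.39 higher (0.22 to 0.56). The Shh rise was also present in the neighbour bins, at 0.80 (0.56 to 1.03) towards Shh and 0.39 (0.15 to 0.62) on the other side. The En2 difference was not: it was 0.09 (-0.09 to 0.26) and -0.32 (-0.52 to -0.12) in those bins. When maps were scaled by their total alone, the Shh ratio was 0.74 and the En2 ratio turned to -0.42. Under that scaling the median of all bin pairs moved to -0.38, against -0.02 with the scaling by separation. Taken relative to that median, En2 contact was close to that of wild type limb.

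In the Mnx1 bin, wild type midbrain showed no difference from limb in contact with Shh that was detectable at this depth, and it had less contact with En2. The log2 ratio of midbrain over limb was -0.06 with Shh (-0.35 to 0.22) and -0.38 with En2 (-0.57 to -0.18). The neighbour bins gave -0.36 and -0.45 with En2. With Shh they gave -0.10 (-0.37 to 0.17) towards Shh and -0.37 (-0.64 to -0.10) on the other side, the second an interval below 0. Divided by the mean of the flanks 30 to 50 kb away, the En2 difference was -0.080 and the Shh difference -0.46. The En2 flanks hold further peaks, at bin a below and at 28530001, of which bin b below is the shoulder. Bin a had 5.96 in midbrain against 7.64 in limb, and 28530001 had 5.50 against 5.71. Bin b had 3.00 against 4.15.

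In limb buds the 3 maps with CTCF deletions had more Mnx1 contact with Shh than wild type. It stood 0.44 above wild type on the log2 scale in i4i5 (0.16 to 0.71), 0.56 in i4i5ZRS (0.30 to 0.82) and 0.70 in i4i5ZRSreg (0.48 to 0.93), and in midbrain i4i5ZRS it was 0.47 over wild type midbrain (0.17 to 0.76). ZRSreg and Lprom, in which no CTCF site is named as deleted, gave -0.0032 (-0.27 to 0.26) and -0.07 (-0.33 to 0.19). The neighbour bins separated these maps less clearly. Towards Shh the log2 ratio was 0.31 in i4i5 (0.05 to 0.57), 0.44 in i4i5ZRS (0.19 to 0.69) and 0.55 in i4i5ZRSreg (0.34 to 0.77). ZRSreg had 0.24 there (0.0031 to 0.48) and Lprom 0.0074 (-0.23 to 0.25). Away from Shh it was 0.17 in i4i5 (-0.08 to 0.43), 0.35 in i4i5ZRS (0.11 to 0.59) and 0.34 in i4i5ZRSreg (0.13 to 0.55). ZRSreg had 0.02 in that bin (-0.21 to 0.26) and Lprom -0.33 (-0.58 to -0.09). Midbrain i4i5ZRS over wild type midbrain had 0.43 towards Shh (0.15 to 0.72) and 0.34 away from it (0.04 to 0.64). Divided by the mean of its flanks, the Shh contact of i4i5 was 0.060 above wild type and that of i4i5ZRSreg 0.46. With the main Shh bin alone, i4i5ZRS stood 0.26 above wild type. With the 2 G4 limb maps ZRSreg and Lprom in place of wild type, the ratios were 0.47 in i4i5, 0.59 in i4i5ZRS and 0.74 in i4i5ZRSreg. Both of those maps carry deletions of their own, so they are no strain control.

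En2 contact did not follow Shh contact. Against wild type limb its log2 ratio was -0.12 for i4i5 (-0.32 to 0.08), -0.33 for i4i5ZRS (-0.53 to -0.13) and 0.18 for i4i5ZRSreg (0.03 to 0.33). In midbrain i4i5ZRS it was -0.43 (-0.69 to -0.19). The same deletion in both tissues thus went with lower En2 contact of Mnx1, and the neighbour bins gave -0.47 and -0.72 in limb and -0.47 and -0.31 in midbrain. Divided by the mean of the flanks, both turned, to 0.24 in limb and 0.13 in midbrain; these flanks hold bins a and b. ZRSreg and Lprom gave 0.14 (-0.02 to 0.30) and -0.08 (-0.24 to 0.08).

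**Figure D3:**
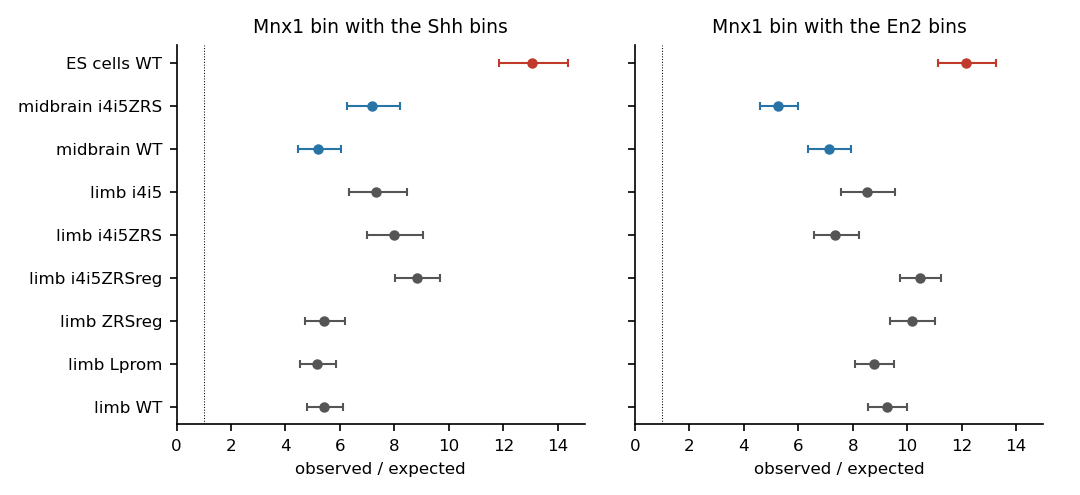
Observed over expected contact (x axis, linear, no unit) of the Mnx1 bin with the Shh bins (left) and the En2 bins (right) in each of the 9 merged maps. Points are the mean over the gene's bins, bars are 95% counting intervals and the dotted line is 1; with Shh the CTCF-deleted maps (7.18 to 8.82) lie right of the 4 maps at 5.17 to 5.42, and with En2 they do not separate.

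**Figure D4:**
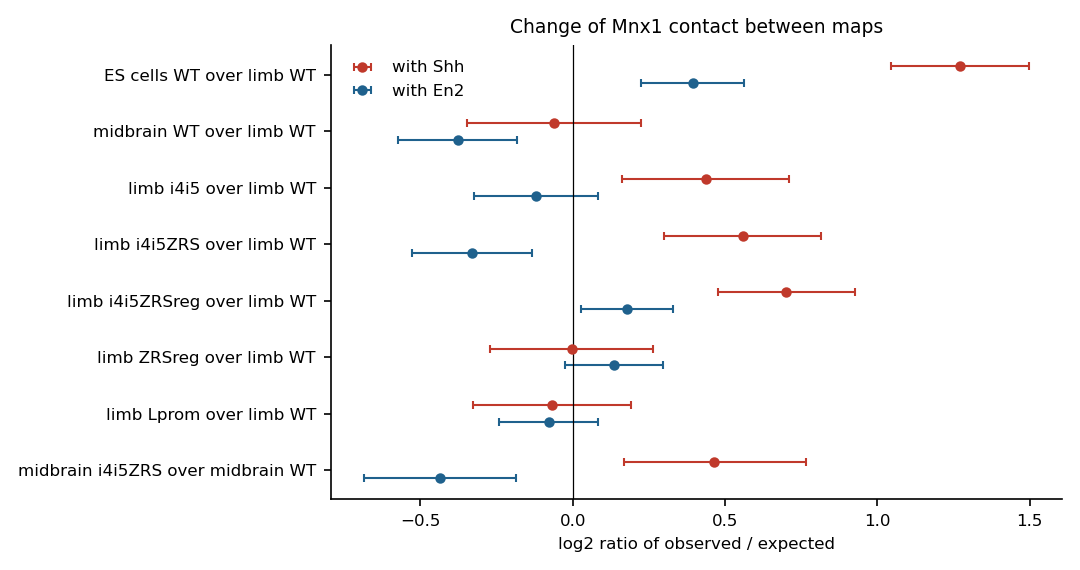
Log2 ratio of observed over expected contact (x axis) of the Mnx1 bin with Shh (red) and En2 (blue) in 8 comparisons, with 95% counting intervals that cover counting error only. The Shh points of ES cells and of the 4 CTCF-deleted maps lie right of 0 (0.44 to 1.27), and in each of these comparisons the En2 point lies left of the Shh point.

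The balance between both partners was taken within each map, from values scaled by the mean at each separation. Shh contact was 1.08 times En2 contact in ES cells, 1.36 in midbrain i4i5ZRS, and 0.730 in wild type midbrain. In limb it was 0.861 times in i4i5, 1.08 times in i4i5ZRS and 0.842 times in i4i5ZRSreg. In ZRSreg, Lprom and wild type limb it was 0.532, 0.590 and 0.586. The Shh change minus the En2 change, a measure chosen after the values were seen, was 0.88 on the log2 scale in ES cells over wild type limb (0.60 to 1.154). In limb it was 0.56 in i4i5 (0.22 to 0.89), 0.89 in i4i5ZRS (0.57 to 1.21) and 0.52 in i4i5ZRSreg (0.26 to 0.79), and in midbrain i4i5ZRS it was 0.90 (0.52 to 1.28). The intervals for wild type midbrain, ZRSreg and Lprom included 0. Over flanks the measure was 0.34 in ES cells, 0.26 in midbrain i4i5ZRS and -0.38 in wild type midbrain, and in limb it was 0.14 with i4i5 and 0.32 with i4i5ZRS. The 5 limb comparisons and those of ES cells and wild type midbrain share the wild type limb map.

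Beside the named genes, bins a and b stood among the 5 highest partners of Mnx1, chosen at least 50 kb apart, in all maps. Bin c was among the 5 in ES cells. Lower bins filled the remaining places: 28110001 and 28640001 in 3 maps each, and 28280001 and 30550001 in 1 each. The highest of these was 28110001 in limb i4i5ZRSreg, at 3.02 (2.07 to 4.26, 32 contacts). Bin a (28440001 to 28450000, at -1360 kb and beyond En2) was among the 5 in 9 of 9 maps. It met Mnx1 at 9.39 in ES cells (7.66 to 11.4, 103 contacts), 4.28 in midbrain i4i5ZRS (3.11 to 5.75, 44 contacts) and 5.96 in wild type midbrain (4.58 to 7.62, 63 contacts). In mutant limb it had 8.21 in i4i5, 5.64 in i4i5ZRS, 8.19 in i4i5ZRSreg, 8.47 in ZRSreg and 7.42 in Lprom, against 7.64 in wild type limb (6.37 to 9.10, 126 contacts). Like the En2 bins it was lowest in the midbrain maps and in limb i4i5ZRS, although the interval of each log2 ratio to wild type included 0 (-0.44 in limb i4i5ZRS and -0.48 in midbrain i4i5ZRS). No gene is placed in this bin.

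Bin b (28540001 to 28550000, at -1260 kb) was among the 5 in 9 of 9 maps too, at 2.25 to 4.15. It is the shoulder of a higher peak nearer to En2 that the 50 kb spacing passed over, at 28530001 in 8 maps and at 28520001 in ES cells. That peak stood at 5.16 in ES cells, 3.46 in midbrain i4i5ZRS, 5.50 in wild type midbrain and 5.71 in wild type limb. Mnx1 thus met a row of 3 peaks over about the same stretch around En2 in the maps of all tissues. Bin b met Shh at 1.00 in ES cells and bin a met Shh at 3.82, so these neighbours of En2 differed in their other contacts.

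Bin c (30430001 to 30440000) lies 630 kb from Mnx1 on the side away from Shh and was among the 5 highest partners in ES cells alone. There it met Mnx1 at 4.77 (3.91 to 5.77, 107 contacts), against 1.59 in wild type limb (1.153 to 2.13, 44 contacts), a log2 ratio of 1.59 (1.07 to 2.13). The next highest map was limb i4i5ZRSreg with 2.48 (1.91 to 3.17, 64 contacts), 0.65 above wild type limb (0.07 to 1.23). The other maps ranged from 1.30 to 1.80. In ES cells the same bin met En2 at 4.69 (3.70 to 5.86, 77 contacts), against 1.68 in wild type limb (1.21 to 2.26, 43 contacts), and it met Shh at 3.37 (2.46 to 4.51, 45 contacts), against 1.08 (0.714 to 1.58, 27 contacts). Shh met En2 at 3.89 in ES cells (3.71 to 4.07, 1748 contacts), against 1.68 in wild type limb (1.57 to 1.79, 868 contacts) and 1.13 in wild type midbrain (1.02 to 1.25, 378 contacts). On this scale the pairs among Mnx1, Shh, En2 and bin c were higher in ES cells than in wild type limb, although the Mnx1-En2 pair turned under total scaling and was not higher in the neighbour bin away from Shh. A pairwise map does not say whether they met in the same nuclei.

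The Shh-En2 contact did not move with the CTCF deletions in the way the Mnx1-Shh contact did. In limb it was 2.23 in i4i5, 1.72 in i4i5ZRS, 2.27 in i4i5ZRSreg, 2.25 in ZRSreg and 1.57 in Lprom, against 1.68 in wild type. In midbrain it was 1.03 with i4i5ZRS and 1.13 in wild type. Bin c met Shh at 2.83 in limb i4i5ZRS (1.98 to 3.91, 36 contacts) and 3.00 in i4i5ZRSreg (2.35 to 3.76, 74 contacts), both above the interval of wild type limb, and at 1.79 in i4i5 (1.09 to 2.77, 20 contacts). With no CTCF site named as deleted, it had 1.99 in ZRSreg (1.39 to 2.77, 35 contacts) and 1.68 in Lprom (1.17 to 2.32, 36 contacts). The intervals of i4i5, ZRSreg and Lprom overlapped that of wild type limb (0.714 to 1.58). In midbrain bin c met Shh at 2.47 with i4i5ZRS (1.71 to 3.46, 34 contacts), against 1.39 in wild type (0.901 to 2.06, 25 contacts).

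Across all partners, few bins rose as far as Shh in ES cells, where its bins ranked 3 and 7 of the 202 counted below. In the CTCF-deleted maps the ranks were mostly lower. The Shh bins ranked 40 and 52 of 189 in limb i4i5 and 5 and 55 of 193 in limb i4i5ZRS. They ranked 14 and 36 of 208 in limb i4i5ZRSreg, and 42 and 54 of 193 in midbrain i4i5ZRS. Of the 202 bins with at least 20 contacts in ES cells and wild type limb together, 11 were at least 2-fold higher and 6 at least 2-fold lower in ES cells, where 2.61% and 5.93% of all bin pairs at 100 kb or more were. As shares of the Mnx1 bins these are 5.45% and 2.97%. Of the 11, 4 lay at Shh or within 50 kb of it, and both Shh bins were among them, with log2 ratios of 1.39 and 1.145. A further 2 were bin c and its surroundings 40 kb nearer to Mnx1 (30390001, 1.28). The largest ratio, 1.84 at 28920001 (0.83 to 2.92), rests on 26 and 13 contacts.

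In the other comparisons the counts were small. Wild type midbrain had 5 bins higher and 3 lower of 199 (1.92% and 2.73% of all pairs), limb i4i5 had 5 and 9 of 189 (3.2% and 3.74%), and limb i4i5ZRS had 1 and 4 of 193 (2.66% and 2.92%). In i4i5ZRSreg 10 were higher and 7 lower of 208 (2.59% and 1.83%), with 2 of the 10 at Shh or near it. ZRSreg had 0 and 7 of 201 (1.62% and 1.97%), Lprom 6 and 3 of 211 (1.76% and 1.77%), and midbrain i4i5ZRS 5 and 5 of 193 (3.04% and 3.02%). The share of higher bins was 4.81% in i4i5ZRSreg, and the share of lower bins was 3.48% in ZRSreg. Under 50 contacts in both maps together lay behind 7 of those 10 bins and all 7 of these. Among the 3 highest and 3 lowest bins named in each comparison, 22 of 24 and 22 of 24 rested on under 50 contacts in both maps together, and the counting interval included 0 for 5 and 9 of them. The bin at 30550001, 750 kb above Mnx1, was among the lowest in 5 comparisons with wild type limb, which had 2.46 there on 19 contacts, against 0.664 to 1.02 in those 5 maps.

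Between Shh and Mnx1 lies the Shh domain, and Mnx1 met its interior less than the mean pair in every map. The domain was taken between the insulation minima at 28760001 and 29700001, the upper one 100 kb from Mnx1 on the Shh side. The Mnx1 bin itself was no border, with an insulation of 0.08 to 0.26 in the 9 maps, against -0.82 to -0.52 at the upper border. Over the 92 domain bins other than Shh the mean was 0.672 in ES cells, 0.831 in midbrain i4i5ZRS, 0.681 in wild type midbrain, and in limb 0.709 in i4i5, 0.669 in i4i5ZRS, 0.707 in i4i5ZRSreg, 0.551 in ZRSreg, 0.649 in Lprom and 0.554 in wild type. Mnx1 therefore met Shh at 5.17 to 13.1 across a stretch that it met at under 1. Means under 1 were not particular to the domain. Above Mnx1 they ran from 0.724 in limb i4i5ZRSreg to 0.923 in ES cells, with 0.804 in midbrain i4i5ZRS. From the upper border to Mnx1 they were 0.765 to 0.897, except 1.10 in ES cells. Below the lower border, without En2, they were above 1, from 1.17 in limb i4i5ZRS to 1.67 in ES cells.

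Contact with the domain interior was higher where CTCF sites were deleted, but not there alone. On the log2 scale it stood 0.36 above wild type limb in i4i5 (70 of 92 bins higher), 0.27 in i4i5ZRS (62 of 92) and 0.35 in i4i5ZRSreg (60 of 92). Midbrain i4i5ZRS stood 0.29 above wild type midbrain (63 of 92). Lprom had 0.23 (62 of 92) and ZRSreg -0.01 (48 of 92). Wild type midbrain stood 0.30 above wild type limb (64 of 92), and ES cells 0.28 (53 of 92), which turned to -0.13 under total scaling. That scaling also left 0.059 in limb i4i5ZRS, 0.048 in Lprom, -0.11 in ZRSreg and 0.13 in wild type midbrain.

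The share of the domain in all Mnx1 signal at 20 kb or more was taken over its 94 bins, the 2 Shh bins included. The Shh bins held 438 of 2724 domain contacts in limb i4i5ZRSreg and 265 of 2347 in wild type limb. The domain took 23.3% in limb i4i5 (22.3% to 24.4%, Wilson interval), 22.9% in i4i5ZRS (22.0% to 23.8%) and 23.7% in i4i5ZRSreg (22.9% to 24.5%). In wild type limb it took 18.6% (17.9% to 19.3%). With i4i5ZRS in midbrain the domain took 24.98%, against 21.03% in wild type. ES cells, ZRSreg and Lprom had 19.8%, 18.1% and 20.05%. On its own side of the border, ES cells met the 9 bins from the upper border to Mnx1 at 1.10, against 0.850 in wild type limb, with 8 of 9 bins higher. This log2 ratio of 0.38 was 0.20 on unbalanced counts and 0.22 with total scaling.

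Among 251 bins, those whose contact with Mnx1 over the 9 maps ran most like that of Shh were 29520001 (Spearman correlation 0.77, at 0.552 to 1.152), bin c (0.77) and 28160001 (0.75, on 7 to 19 contacts). The En2 mean gave 0.40, and 0.14 over the 8 maps without ES cells. These are rank correlations over maps that differ in depth, strain and tissue, and they are given as a description.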

How the data were processed

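Per the labels' protocols, DpnII-cut and re-ligated chromatin of limb buds, midbrain and ES cells was captured with SureSelect probes of custom design. Bowtie2 2.3.4.1, cutadapt 1.15, SAMtools, Juicer and mm9 stand in the submitters' processing notes. Their settings were not given in the sources used here. What the authors deposited was 1 signal per pair of 10 kb bins, 1 merged map per group, at mapping quality 30 and KR-balanced, as the deposited file names say. Balancing gives every bin of a map the same total, and unlisted pairs were taken as 0.

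Each signal was divided by the mean at its separation. Contact counts were recovered from the balanced signal as whole numbers over 2 bin factors (100% within 0.01 in every map) and gave the intervals: exact Poisson for levels, exact binomial for ratios, Wilson for shares. Flanks lie 30 to 50 kb from a gene's bins. Insulation compares the signal in a square of 10 by 10 bins across a bin with its average along the map, on the log2 scale, and domain borders are minima of its mean over the maps. Named bins were Shh, En2, the 5 highest partners per map, the 3 highest and lowest changes per comparison at 20 or more contacts, and the 3 bins most like Shh. The members and lists were chosen with earlier results of these data known. In 20 simulated maps of limb i4i5 over wild type limb (39340 pairs), a true Mnx1-Shh log2 change of 0.957 came back as 0.939 on average. The standard deviation was 0.124. With no change planted the mean was -0.041 and the standard deviation 0.183. The simulation used known bin factors, so it did not check the balancing. Python 3.11.15, numpy 2.4.6, scipy 1.17.1 and matplotlib 3.10.9 were used. Alternatives were a median in place of the mean at each separation, 3 viewpoint bins, unbalanced counts, total scaling, G4 limb maps, 1 partner bin, and 50 contacts, and, added after the data were seen, flanks.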

Additional observations from a re-analysis of the deposited data

How the results depend on the processing

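No paired analysis was possible because libraries were merged before deposit, so no replicate could be left out either. A median in place of the mean at each separation, or the G4 limb maps in place of wild type limb, moved no Shh or En2 ratio beyond its counting interval, and neither did unbalanced counts. With the mean of 3 viewpoint bins the log2 ratio of ES cells over wild type limb was 0.87 with Shh and 0.12 with En2. With total scaling it was 0.74 and -0.42, in limb i4i5 0.74 and 0.11, in limb i4i5ZRS -0.58 with En2 and in limb i4i5ZRSreg 0.36 with En2. The turn for ES cells goes with the shift of the median of all pairs to -0.38. With the main partner bin alone, limb i4i5ZRS gave 0.26 with Shh and -0.092 with En2. Over flanks, the Shh ratio was 0.76 in ES cells, -0.46 in midbrain, 0.060 in limb i4i5 and 0.46 in limb i4i5ZRSreg, and the En2 ratio was -0.080 in midbrain and turned to 0.24 in limb i4i5ZRS and 0.13 in midbrain i4i5ZRS. For these moves the cause was not tested. The Shh change minus the En2 change was 1.16 in ES cells with total scaling. Over flanks it was 0.34 in ES cells, -0.38 in wild type midbrain, 0.14 in limb i4i5, 0.32 in limb i4i5ZRS and 0.26 in midbrain i4i5ZRS. With the main bin alone it was 0.35 in limb i4i5ZRS and 0.20 in limb i4i5ZRSreg. The number of bins past 2-fold fell with 3 viewpoint bins to 10 in ES cells (17 in the main setting), 2 in wild type midbrain (8), 4 in limb i4i5 (14), 3 in limb i4i5ZRSreg (17), 1 in ZRSreg (7), 5 in Lprom (9) and 2 in midbrain i4i5ZRS (10). At 50 contacts it was 6 in ES cells, 2 in wild type midbrain, 2 in limb i4i5, 2 in limb i4i5ZRS (5 in the main setting), 3 in limb i4i5ZRSreg, 0 in ZRSreg, 0 in Lprom and 1 in midbrain i4i5ZRS, so most single-bin changes rest on few contacts. The domain share in limb i4i5ZRSreg was 22.5% on unbalanced counts, and the ES cell domain ratio of 0.28 turned to -0.13 with total scaling.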
